A study of Mus musculus with 12 samples.

Results

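Cells of the superior cervical ganglion (SCG) were cultured in porous polystyrene scaffolds (3D) or on a flat surface (2D), and their messenger RNA was measured on 8 Affymetrix mouse genome arrays, 4 of each culture. The 8 were all arrays of cultured cells among the 12 in the series; the other 4 hold freshly dissected SCG tissue and are used here only as levels printed beside a gene. All 3 groups came from mice of the CD1 strain, aged 21 days by the labels and neonatal by the methods, and the labels name no drug and no altered gene. The flat surface was a polystyrene Petri dish by the labels, while the methods name dishes with a glass bottom and, elsewhere in the study, glass or polystyrene. A dish or scaffold held cells pooled from more than 1 ganglion on average. Scaffolds and flat surfaces alike were coated with type I collagen, and both cultures grew in medium with serum and nerve growth factor. Of the 45037 probe sets that are not controls, 34945 carry 1 gene symbol and stand for 18193 genes, and each gene is given by its brightest probe set on average over the 12 arrays. Every gene was compared between 3D and 2D, and 697 of the 743 genes in 40 gene lists were measured. Values are log2 levels after the RMA algorithm, so that a difference of 1 is a doubling. RMA gives no detection call, and precision is limited by having 4 arrays a group.

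The SCG is the uppermost ganglion of the sympathetic chain. Its noradrenergic neurons live on nerve growth factor, each soma is wrapped by satellite glia, and fibroblasts, vessel cells and macrophages fill the tissue between them. The ganglia were digested with collagenase, and the methods describe no step that removes the other cell types, so an array reads the RNA of all cells in a culture together: fewer cells of a type and less RNA per cell cannot be told apart. The defining markers of the labelled tissue were bright in both cultures. Tyrosine hydroxylase (Th), which makes the precursor of noradrenaline, read 9.59 to 12.44 in 2D and 9.44 to 10.63 in 3D, and the glial transcription factor Sox10 read 12.66 to 12.91 and 13.05 to 13.27. Skeletal muscle markers were dim on all 8 culture arrays, with list medians of 5.27 to 5.54.

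Replicate arrays of the flat culture spread more than those of the scaffold culture. The median SD over 4 arrays was 0.189 in 2D and 0.118 in 3D, and the SD was larger in 2D for 75.7% of genes. With any 1 array left out that share lay between 64.7% and 82.5%. Root mean square differences between pairs of arrays ran from 0.278 to 0.565 within 2D, from 0.187 to 0.354 within 3D and from 0.307 to 0.541 between 2D and 3D, so that some arrays of 1 culture differed from each other as much as from the other culture. Over all probe sets 2D replicate 3 lay farthest from the mean of the other arrays of its group, at 0.457. After it came 2D replicate 4 at 0.428, and within 3D the farthest was 3D replicate 1 at 0.29. In the marker lists described below 2 arrays stood apart by neuronal genes. These were 2D replicate 4, with low neuronal and high macrophage and smooth muscle markers, and 3D replicate 1, with higher neuronal markers than the other 3D arrays. By macrophage markers 2D replicate 3 was the lowest culture array. The median distance from a difference to either bound of its 95% interval was 0.259.

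**Figure D1:**
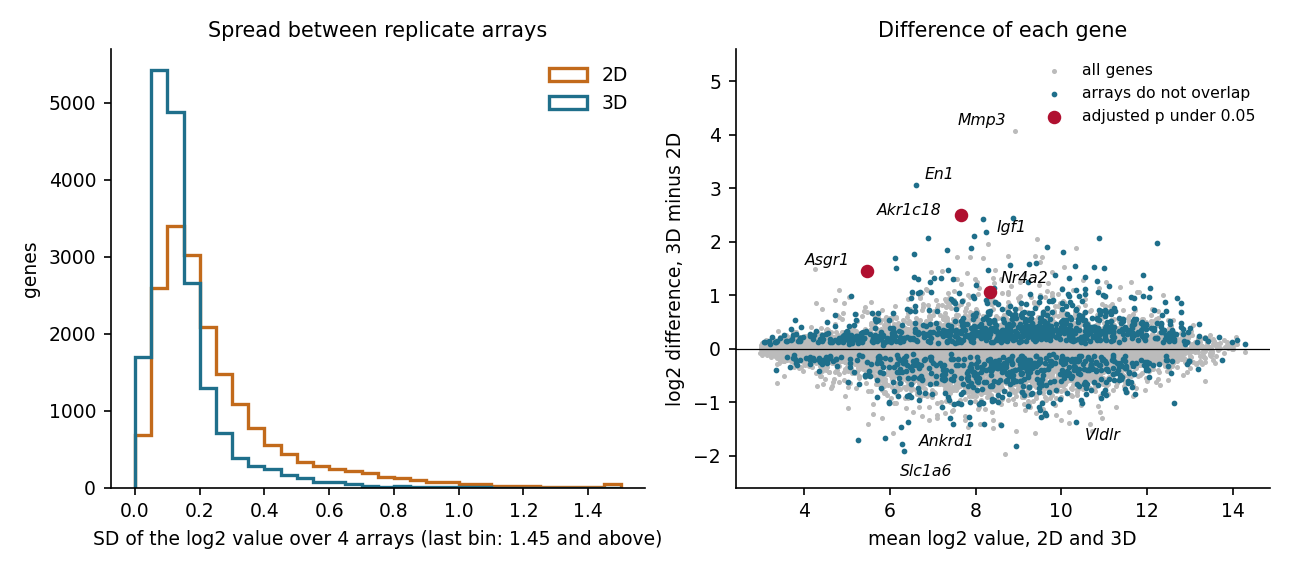
Left, number of genes by the SD of their log2 value over the 4 arrays of 2D (orange) and 3D (blue). Right, log2 difference 3D minus 2D of each gene against its mean log2 value in both cultures; the 2D curve has its median at 0.189 and the 3D curve at 0.118, and the 3 genes in red lie above 0.

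In 3D, 3 genes rose and 0 fell at an adjusted p under 0.05 (limma, Benjamini-Hochberg over all 45037 probe sets), which is 0.0165% of the 18193 genes. They were Akr1c18, Asgr1 and Nr4a2. At an unadjusted p under 0.05, 1377 genes (7.57%) read higher in 3D and 1000 (5.5%) lower. All 4 of the 3D arrays lay above all 4 of the 2D arrays in 816 genes (4.49%) and below them in 523 (2.87%). A difference of at least 2-fold was seen in 114 genes read higher and 90 read lower, of which 55 and 31 had arrays that did not overlap. The median difference of all genes was 0.01. These shares are the background for the list counts below that use all 4 arrays of each culture. Counts with an array left out or weighted come from other fits, whose shares differ and are given only for some.

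Akr1c18, a steroid dehydrogenase known for inactivating progesterone, had the largest of the 3 changes. Its log2 level was 6.0, 6.11, 6.54 and 6.96 on the 4 arrays of 2D, 8.47, 9.02, 9.15 and 8.94 on those of 3D, and 6.11 to 6.60 in tissue. The lowest 3D array lay above the highest 2D array, and the tissue arrays lay within the range of 2D. The difference was 2.49 ± 0.23 on the log2 scale (SE, n = 4 and 4), which is 5.63-fold (limma adjusted p = 0.0271).

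Asgr1 encodes a subunit of the asialoglycoprotein receptor, known from liver, where it takes up glycoproteins that have lost their sialic acid. It read 4.79, 4.56, 4.75 and 4.88 in 2D and 6.0, 6.29, 6.38 and 6.13 in 3D. Tissue lay below both cultures, at 3.82 to 4.06. The difference was 1.46 ± 0.11 (SE, n = 4 and 4), or 2.74-fold (limma adjusted p = 0.0170), at levels in the dim part of the range. Akr1c18 and Asgr1 each have 1 probe set, so neither has a second reading on these arrays.

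Nr4a2 encodes Nurr1, a nuclear receptor of the immediate early response that is required for midbrain dopamine neurons. It read 7.87, 7.80, 7.65 and 7.90 in 2D and 8.93, 8.69, 8.78 and 9.08 in 3D. Tissue, at 8.07 to 8.56, lay between the cultures. The difference was 1.07 ± 0.10 (SE, n = 4 and 4), or 2.09-fold (limma adjusted p = 0.0330). Of its 6 probe sets 3 passed, with 1.07, 1.05 and 0.94, and the 3 that did not read 0.45, -0.06 and -0.12, so that the mean of the 6 gave 0.56 (adjusted p = 0.0529). For its relatives Nr4a1 and Nr4a3 the 95% intervals of the difference ran from -0.26 to 0.69 and from -0.26 to 0.09.

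**Figure D2:**
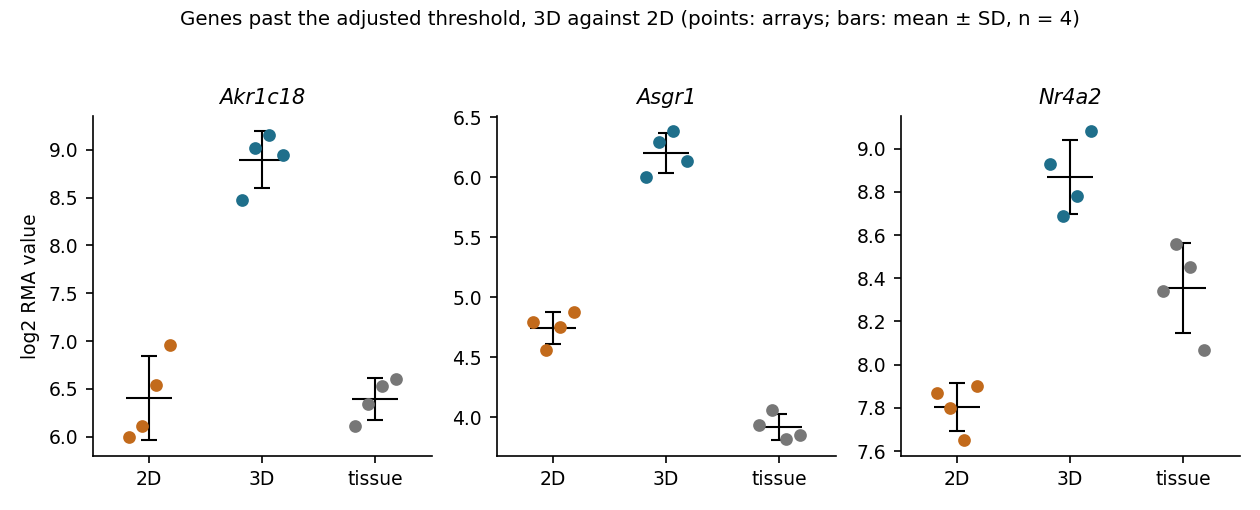
Log2 RMA value of Akr1c18, Asgr1 and Nr4a2 on each array of 2D, 3D and tissue; each point is an array and the bars give the mean and SD over 4 arrays. In each panel all 4 points of 3D lie above all 4 of 2D, by 2.49, 1.46 and 1.07 between the means.

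The 3 calls depended on which arrays entered the fit. They held in all 3 genes without 2D replicate 4 or without 3D replicate 1. Without 2D replicate 1, 3D replicate 2, 3D replicate 3 or 3D replicate 4 in turn, 0 of the 3 passed, with adjusted p between 0.0625 and 0.182, and without 2D replicate 2 or 2D replicate 3 only Asgr1 did. The log2 differences themselves moved little, between 2.36 and 2.68 for Akr1c18, 1.39 and 1.52 for Asgr1, and 0.995 and 1.125 for Nr4a2.

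The 9 genes next in order of adjusted p, between 0.0607 and 0.0849, did not pass but had arrays that did not overlap, and 8 of them are described. Slc7a5, the light chain of a large neutral amino acid transporter, read 10.84, 11.01, 11.16 and 10.93 in 2D and 10.20, 9.79, 10.05 and 9.84 in 3D, a difference of -1.02 ± 0.11 (SE, n = 4 and 4). Slc4a4, a sodium bicarbonate cotransporter, stood at -1.29 ± 0.17, with all 3D arrays between 6.71 and 6.84 and the 2D arrays between 7.64 and 8.52. Slc1a4, a neutral amino acid transporter, is described with the amino acid genes below. The other 5 described read higher in 3D. Gfra1, the receptor subunit that binds glial cell line-derived neurotrophic factor, read 9.5 to 9.89 in 2D and 10.47 to 10.95 in 3D (0.98 ± 0.13). Fzd1, a receptor for Wnt proteins, read 10.67 to 10.81 and 11.26 to 11.40 (0.61 ± 0.07). Jade2, Nav2 and Krtap4-16 stood at 0.69, 0.72 and 1.85. Other probe sets differed for some: Jade2 has 1 other at 0.04, and the other 7 of Nav2 lay between -0.41 and 0.15, the other 4 of Slc4a4 lay between -1.20 and 0.07, and all 3 of Gfra1 lay between 0.78 and 1.5.

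Among genes whose arrays did not overlap, the 15 with the highest differences read 1.69 to 3.06 above 2D, and their adjusted p, apart from Akr1c18, was 0.0849 to 0.222. En1, a homeobox transcription factor known from the midbrain, read 3.96, 4.35, 4.82 and 7.18 in 2D and 7.61, 8.76, 7.71 and 8.48 in 3D, while tissue stood at 3.88 to 4.92. Its 2D replicate 4 lay closer to 3D than to the other 2D arrays. Insulin-like growth factor 1 (Igf1) read 7.56, 6.53, 6.22 and 8.29 in 2D and 10.05, 9.31, 9.02 and 8.96 in 3D, and all 4 of its probe sets read higher, by 1.52 to 2.19. Genes for 2 proteins that bind insulin-like growth factors were in the same group: Igfbp4 stood at 2.07, with all 6 probe sets between 0.62 and 2.22, and Igfbp2 at 1.77. Matrix genes made up another part of it. Mgp, an inhibitor of calcification, stood at 1.98, the collagen-binding proteoglycan lumican (Lum) at 1.81 and the lubricant proteoglycan Prg4 at 1.69. Slc13a3, a transporter of dicarboxylates, stood at 2.45, the signalling regulator Rgs8 at 1.90 and the protease Gzmb at 2.11. The lectins Cd209g (2.08) and Cd209f (1.88) belong to 1 family of closely related genes.

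The 15 lowest stood between -1.91 and -1.27. Slc1a6, a glutamate transporter, read 7.22, 6.91, 6.04 and 9.01 in 2D and 5.16 to 5.67 in 3D (-1.91). Ankrd1, a target of the mechanosensitive coactivators YAP and TAZ, read 6.38, 6.61, 6.56 and 9.14 in 2D and 5.17 to 5.64 in 3D (-1.78). In both genes 2D replicate 4 was the highest array and the other 2D arrays still lay above 3D. Ppp1r14a, an inhibitor of myosin phosphatase in smooth muscle, read 5.43 to 6.96 in 2D and 4.29 to 4.64 in 3D, a difference of -1.70 ± 0.28 (SE, n = 4 and 4). Plac8 (-1.81), Krt19 (-1.67), the oxidase Nox4 (-1.46) and the signalling protein Wnt5a (-1.41) belonged here too. Adjusted p over the 15 was 0.0849 to 0.415.

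**Figure D3:**
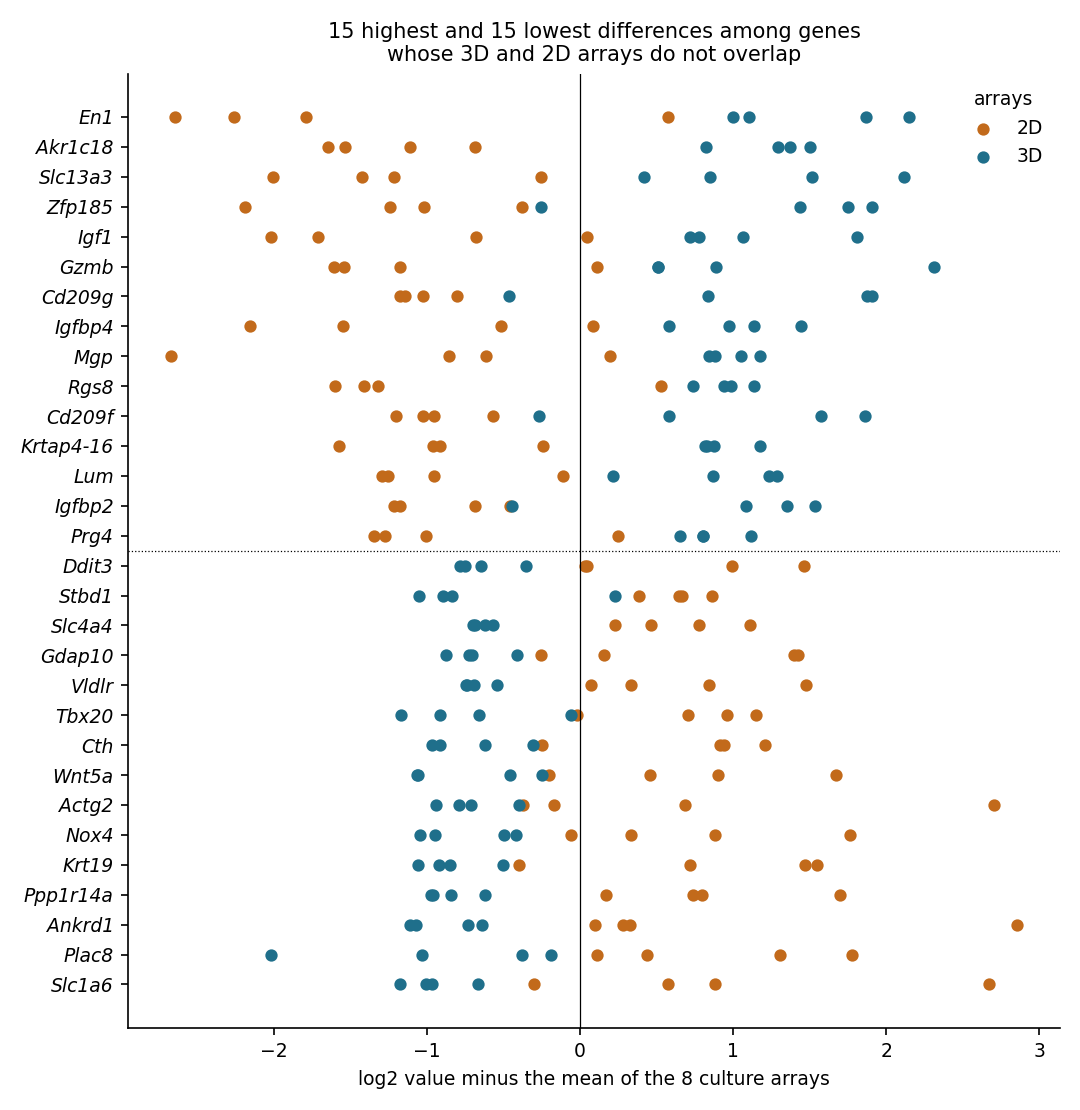
Log2 value of each culture array minus the gene's mean over the 8 culture arrays, for the genes with the 15 highest (above the dotted line) and 15 lowest differences among those whose 3D (blue) and 2D (orange) arrays do not overlap. The genes were chosen for this separation, which runs from 3.06 for En1 to -1.91 for Slc1a6; 2D replicate 4 is the orange point nearest to 3D for En1 and the farthest from it for Ankrd1 and Slc1a6.

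Of the 40 lists, the one on the unfolded protein and ATF4 response held the most genes whose arrays did not overlap. When amino acids are short or misfolded proteins collect, kinases slow translation and the factor ATF4 switches on genes that import and make amino acids. Of the 23 genes in the list 0 passed the adjusted threshold, 12 read lower at the unadjusted threshold and 0 higher, and 9 had all 3D arrays below all 2D arrays, against 5.5% and 2.87% of all genes. The list median was -0.41, against 0.01 for all genes. Each of the 4 arrays of 3D had a list median below each array of 2D: relative to the culture mean they stood at -0.24, -0.25, -0.18 and -0.24, and 2D at 0.04, 0.38, 0.19 and 0.12. With any 1 array left out, 11 to 14 of the 23 read lower at the unadjusted threshold. The share of all genes in those fits can differ from 5.5%. Array quality weights were lowest for 2D replicate 3 (0.29) and 2D replicate 4 (0.45) and highest for 3D replicate 4 (2.67) and 3D replicate 2 (2.05). With these weights 8 of the 23 were past the adjusted threshold, all lower, when 0.638% of all genes were lower and 1.08% higher in that fit.

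The genes of this list that stood lower are enzymes, transporters and stress regulators. Vldlr, a lipoprotein receptor, read 10.42, 11.19, 11.82 and 10.68 in 2D and 9.80, 9.65, 9.61 and 9.60 in 3D (-1.36 ± 0.27, adjusted p = 0.168), and all 6 of its probe sets stood lower, at -1.36 to -0.81. Chac1, which degrades glutathione, read 10.86, 11.32, 11.19 and 10.64 in 2D and 10.18, 9.91, 10.45 and 10.06 in 3D (-0.85 ± 0.17, adjusted p = 0.174). Neither gene's arrays overlapped. The same held for Psat1 (-0.61) and Shmt2 (-0.62) of serine and one-carbon metabolism, Mthfd2 (-0.55 ± 0.09) of mitochondrial folate metabolism, Asns (-0.46), which makes asparagine, and Slc3a2 (-0.58), the heavy chain that pairs with Slc7a5. The regulators Ddit3 (-1.27) and Trib3 (-1.15) were higher in 2D replicate 3 than elsewhere, at 10.99 and 10.81, and again did not overlap with 3D. Slc7a11, the cystine transporter, overlapped: 2D replicate 1, at 6.02, was its lowest array, and the difference was -1.25 ± 0.54.

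Atf4 itself stood near 0. It read 12.14 to 12.44 in 2D and 12.14 to 12.32 in 3D, and the 95% interval of its difference ran from -0.26 to 0.13. Chaperones of the endoplasmic reticulum in the list were near 0 as well, with -0.12 for Hspa5 (interval -0.41 to 0.17) and 0.10 for Hsp90b1 (interval -0.10 to 0.30), and the factor Xbp1 stood at -0.03. Genes of amino acid supply that were not in the list, named after their values were seen, stood lower with the transporters above. The neutral amino acid transporter Slc1a4 read 9.77 to 10.41 in 2D and 8.98 to 9.14 in 3D (-1.01 ± 0.13, adjusted p = 0.0849), although its 2 dimmer probe sets gave -0.47 and -0.38. Cth, which makes cysteine, stood at -1.41, the mitochondrial enzyme Pck2 at -0.82 and Aldh18a1, which begins proline synthesis, at -0.56 with all 5 probe sets between -0.62 and -0.46. None of these 4 had overlapping arrays.

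The promoters of the list were searched for the 8-letter element to which ATF4 binds together with C/EBP proteins, TGATGNAA, on both strands (on the opposite strand TTNCATCA), in the 250 bases before the start site as RefSeq gives it for mouse build GRCm38.p6. All 23 genes had a promoter sequence and 5 held the element, Herpud1, Chac1, Asns, Slc7a11 and Vldlr, against 3.91% of 27025 genes. All 5 are among the 12 that read lower at the unadjusted threshold. The list was made of genes of this response, so a share above that of all genes is built in and is not a result of these data. A match of letters is a description and not a binding site. The stretches around the element in 4 of them are shown with every match in capitals, each 5′ to 3′ on the strand of the gene, because they belong to the list with the most genes whose arrays did not overlap. Positions are counted from the start site, with -1 the base before it. Slc7a11 holds a match on each strand, and the other 3 shown hold 1 match each in the window.
Vldlr, chr19:27216794-27216853, plus strand, element from position -200: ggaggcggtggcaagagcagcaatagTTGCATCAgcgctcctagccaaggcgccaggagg
Chac1, chr2:119351023-119351082, plus strand, element from position -193: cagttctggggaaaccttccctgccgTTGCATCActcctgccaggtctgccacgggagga
Slc7a11, chr3:50443646-50443705, minus strand, elements from positions -66 and -47: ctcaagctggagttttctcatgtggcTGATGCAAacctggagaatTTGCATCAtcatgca
Asns, chr6:7693210-7693258, minus strand, element from position -23: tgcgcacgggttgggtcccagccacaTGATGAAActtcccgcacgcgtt

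Genes of the hypoxia response and of glycolysis also stood lower in 3D, with less even arrays. These genes are switched on by HIF factors when oxygen falls. Of 26 measured genes 13 read lower and 2 higher at the unadjusted threshold, 6 and 1 without overlap, 0 passed the adjusted threshold, and the median was -0.41. Adm, a vasodilator peptide, read 10.06, 9.92, 10.54 and 10.32 in 2D and 8.65, 9.26, 9.33 and 8.82 in 3D (-1.20 ± 0.19, adjusted p = 0.123). The first enzyme of glycolysis in many growing cells, Hk2, read 9.70, 10.54, 11.08 and 9.71 in 2D and 8.74 to 9.5 in 3D (-1.25 ± 0.32). The mitochondrial protein Higd1a (-0.86), the carbonic anhydrase Car9 (-0.88), the glucose carrier Slc2a1 (-0.71) and Ldha (-0.24) did not overlap either. Vegfa (-0.93), Bnip3 (-0.89) and the lactate carrier Slc16a3 (-0.79) overlapped, and for Bnip3 the array nearest to 2D was 3D replicate 1, at 11.91. Pfkfb4, an enzyme that regulates glycolysis, went the other way, with 8.67 to 9.27 in 2D and 9.46 to 10.16 in 3D (0.87 ± 0.18, adjusted p = 0.183). The list medians of 2D replicates 2 and 3 stood at 0.47 and 0.62 over the culture mean and those of 2D replicates 1 and 4 at 0.00 and -0.14, the last below that of 3D replicate 1 at -0.01. The count of 13 went to 8 without 2D replicate 2 or without 3D replicate 4.

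**Figure D4:**
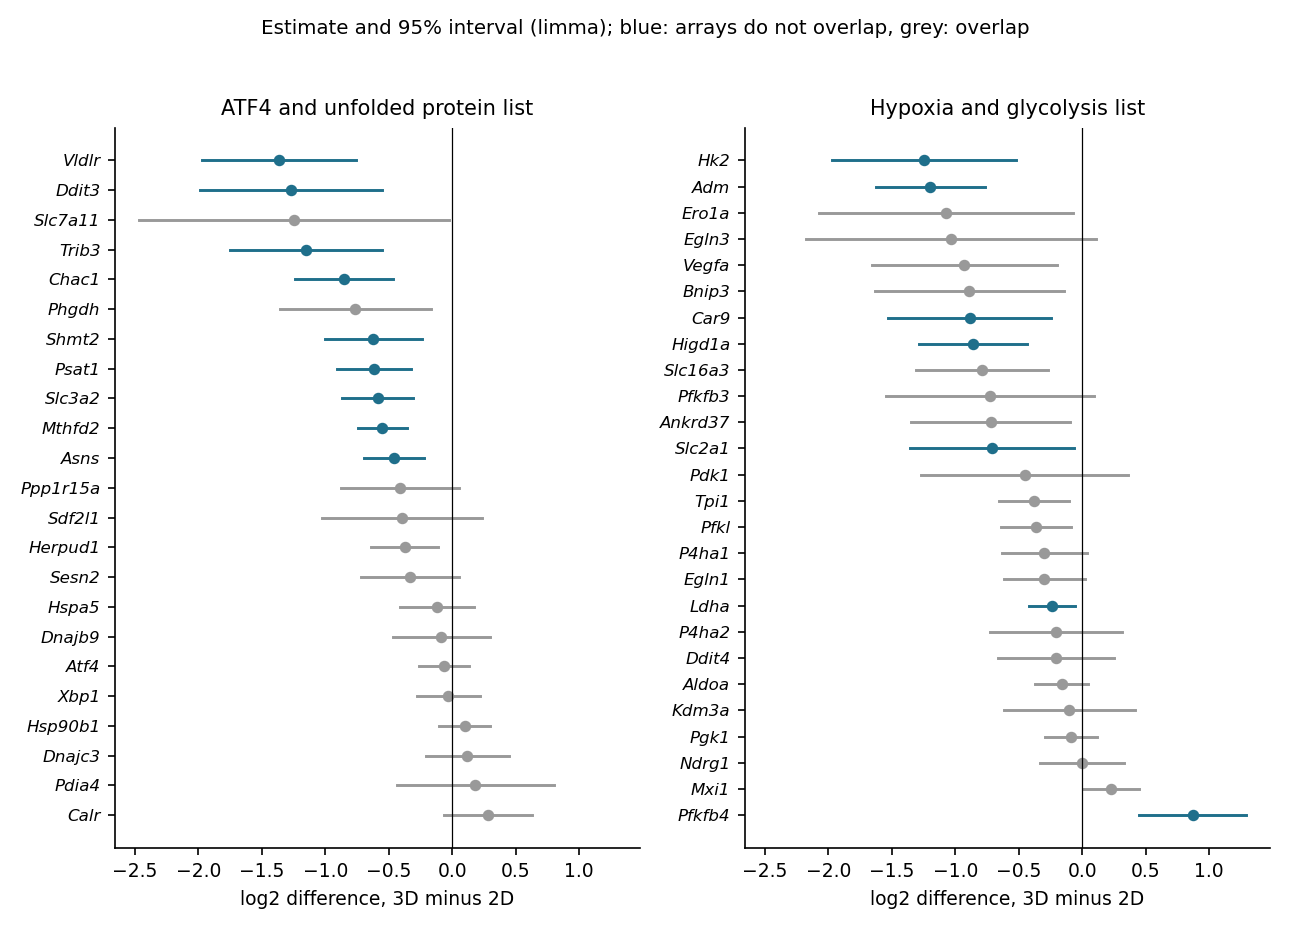
Log2 difference 3D minus 2D with its 95% interval (limma) for each measured gene of the ATF4 and unfolded protein list (left, 23 genes) and of the hypoxia and glycolysis list (right, 26 genes), ordered by size. Genes whose arrays do not overlap are blue, 9 on the left, all below 0, and 7 on the right, of which Pfkfb4 lies above 0.

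Subunits of the respiratory chain differed by much smaller amounts. Of 19 genes 6 read lower at the unadjusted threshold and 0 higher, and 5 of the 19 had all 3D arrays below 2D. The largest of these was Ndufb8 of complex I, at 11.08 to 11.36 in 2D and 10.57 to 10.98 in 3D (-0.38 ± 0.11, adjusted p = 0.268), though its probe set of highest SD gave 0.18. Ndufa4 (-0.26), Cox7a2 (-0.23) and Cox4i1 (-0.21) were without overlap too, and Cox6c (-0.32) met at 11.61. The count of 6 went to 3 without 3D replicate 2.

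Most contractile genes of smooth muscle and pericytes stood lower in the scaffold, with uneven arrays. Of 13 markers 6 read lower and 0 higher at the unadjusted threshold, 4 without overlap, and the median was -0.79. The actin of smooth muscle, Acta2, read 13.21, 13.08, 12.56 and 13.70 in 2D and 11.59, 12.37, 12.55 and 11.95 in 3D (-1.02 ± 0.27, adjusted p = 0.232), so that 2D replicate 3 and 3D replicate 3 all but met. Smoothelin (Smtn) read 8.72 to 9.39 and 8.15 to 8.34 (-0.79 ± 0.16, adjusted p = 0.177), the smooth muscle myosin Myh11 stood at -1.0 and Actg2 at -1.43. Tagln (-1.19) and Notch3 (-0.74) overlapped. In Tagln 2D replicate 4 reached 12.97 while the other 2D arrays read 10.32 to 11.46. The list medians relative to the culture mean stood at 0.45, -0.11, -0.21 and 1.01 in 2D. In 3D they stood at -0.46, -0.26, -0.10 and -0.55, so that 2D replicate 2 and 2D replicate 3 lay below 3D replicate 3. The count of 6 went to 3 without 3D replicate 1 or without 3D replicate 4.

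The wider set of stress fibre and serum response factor genes was nearer to 0. Of its 20 genes 0 passed at either threshold, and the median was -0.07. Targets of YAP and TAZ were mixed, with 3 higher and 5 lower of 22 and a median of -0.01. The secreted proteins Ccn2 (-0.68) and Ccn1 (-0.54) stood with Ankrd1 among the lower, whereas Gadd45a (0.47 ± 0.09, adjusted p = 0.160), Dock5 (0.34) and Wwtr1 (0.30), the gene of TAZ itself, had all 3D arrays above 2D. For Wwtr1 the probe set of highest SD gave -0.15. Without 2D replicate 4 the higher targets numbered 7 and the lower 6. In that fit, to which later counts without this array also belong, 11.1% of all genes read higher and 11.9% lower at the unadjusted threshold.

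Most markers of satellite glia stood higher in 3D, with 9 positive and 4 negative differences. Of 13 measured markers 7 read higher and 1 lower at the unadjusted threshold, 5 and 0 without overlap, 0 passed the adjusted threshold, and the median was 0.45. The transcription factor Sox2 read 11.76, 11.65, 11.69 and 12.07 in 2D and 12.25, 12.67, 12.56 and 12.58 in 3D (0.72 ± 0.12, adjusted p = 0.148). The neuregulin receptor Erbb3 (0.47 ± 0.09), Sox10 (0.38 ± 0.08), the enzyme Cnp (0.62) and the cadherin Cdh19 (0.69) did not overlap either. The potassium channel Kcnj10, a marker of mature satellite glia, was the 1 that read lower at the unadjusted threshold. It read 7.71 to 9.64 in 2D and 7.43 to 7.78 in 3D (-1.09 ± 0.35, adjusted p = 0.299), with 9.61 as its mean in tissue. Myelin markers of Schwann cells gave 1 lower and 0 higher of 11. With each array left out in turn, 5 to 9 of the glial markers read higher at the unadjusted threshold, in fits whose shares of all genes also differ.

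Neurotrophic factors and their receptors leaned the same way, with 9 of 17 higher and 0 lower at the unadjusted threshold, 4 higher without overlap, and a median of 0.34. Hepatocyte growth factor (Hgf) read 5.95 to 6.38 in 2D and 6.71 to 7.4 in 3D (0.80 ± 0.16, adjusted p = 0.164). Artn, a ligand of the GDNF family that acts on sympathetic neurons, read 9.79, 9.63, 8.72 and 9.24 in 2D and 9.81, 10.32, 10.49 and 10.40 in 3D (0.91 ± 0.24, adjusted p = 0.232), so that 3D replicate 1 was just above the highest 2D array. The receptor Ngfr stood at 0.34 ± 0.08, Fgf7 at 1.38 and Gdnf itself at 0.66, the last 2 with overlap. Without 2D replicate 4, 3 members read lower and 9 higher. The 12 nerve injury genes were divided, with a median of -0.19 and 8 negative differences, 4 higher and 1 lower at the unadjusted threshold, and 4 and 4 without 2D replicate 4. Gfra1, Flrt3 (0.52 ± 0.10) and the neuropeptide Vip (0.90 ± 0.20) stood higher without overlap, and the growth cone protein Basp1 stood at -0.48 ± 0.17 with overlap.

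Of 25 axon guidance genes 6 read higher and 2 lower at the unadjusted threshold. Slit3, a repellent, read 8.39 to 9.47 in 2D and 9.53 to 9.92 in 3D (1.03 ± 0.22, adjusted p = 0.189), and Sema3a, which repels sympathetic axons, read 5.70 to 6.30 and 6.31 to 7.5 (1.06 ± 0.25). In both genes the nearest arrays of the 2 cultures almost met. Sema3e (2.04), the receptor Epha5 (1.43) and Slit2 (0.82) overlapped, Sema3e and Epha5 through a low 3D replicate 1, at 9.27 and 9.81. The netrin receptor Unc5c stood at -0.28 without overlap.

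In the TGF-beta and BMP list 5 of 22 genes read higher and 1 lower, 4 higher without overlap. They were Tgfbi (1.0 ± 0.17, adjusted p = 0.148), the inhibitor of DNA binding Id1 (0.73), the BMP antagonist Grem1 (1.30) and the pseudoreceptor Bambi (0.75). Without 2D replicate 4 the count higher was 9, and without 2D replicate 2 the count lower was 3. Notch1 read 9.33 to 10.23 in 2D and 10.48 to 11.18 in 3D (0.98 ± 0.22). Heyl, a target of the Notch pathway, read 8.90 to 9.61 and 8.33 to 8.43 (-0.84 ± 0.16). The adhesion molecule N-cadherin (Cdh2) read 11.98 to 12.28 and 12.48 to 12.64 (0.48 ± 0.09, adjusted p = 0.148).

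Enzymes that remodel matrix included the gene with the largest difference of all. Mmp3, a metalloproteinase, read 5.0, 5.62, 10.08 and 6.89 in 2D and 9.42, 12.57, 11.19 and 10.67 in 3D, and 4.65 to 5.05 in tissue. The difference of 4.07 ± 1.09 (SE, n = 4 and 4) did not pass (adjusted p = 0.233), and 2D replicate 3 lay above 3D replicate 1. Of 19 proteases and inhibitors 5 read higher and 0 lower, with 3 of them, Adamts1 (0.76 ± 0.18), Mmp19 (1.48 ± 0.40) and the inhibitor Timp2 (0.41 ± 0.11), without overlap. Without 2D replicate 4 or without 3D replicate 1 the count of 5 was 8, in fits whose shares of all genes also differ. The other probe sets of Timp2 lay between 0.025 and 0.895.

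Fibroblast and matrix genes stood on both sides of 0. Of 16 fibroblast markers 3 read higher and 2 lower. Lum read 9.93, 8.79, 8.75 and 9.09 in 2D and 10.26, 11.28, 11.33 and 10.91 in 3D, and decorin (Dcn) 10.94 to 11.57 and 11.32 to 13.06 (1.05 ± 0.34). Fibulin 2 (Fbln2), in contrast, read 11.52 to 12.58 and 11.19 to 11.44 (-0.85 ± 0.22), without overlap. Of 17 collagens 4 read higher and 3 lower, with Col6a2 at 0.56 and Col8a1 and Col5a3 at -0.80 and -0.74 without overlap. The laminin chain Lamb1 read 11.19 to 11.61 and 10.76 to 10.91 (-0.56 ± 0.10, adjusted p = 0.149). Complement component C1s1 stood at 1.47 ± 0.29 without overlap, 1 of 3 higher among 8 complement genes. For collagens the count higher was 1 without 3D replicate 2 and 2 without 2D replicate 1, 2D replicate 3, 3D replicate 1 or 3D replicate 4, and the count lower was 6 without 2D replicate 3.

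Immediate early genes other than Nr4a2 were divided. The transcription factors Jun (12.05 to 12.46 in 2D, 12.65 to 12.89 in 3D) and Atf3 (12 to 12.56, 12.76 to 13.37) stood higher by 0.52 and 0.86 without overlap (adjusted p = 0.168 and 0.177). The phosphatase Dusp1, which switches off stress kinases, read 11.07 to 11.94 and 10.37 to 10.54 (-0.92 ± 0.18, adjusted p = 0.175). These 4 were the only ones of 22 at the unadjusted threshold. Without 2D replicate 3 there were 7 higher, in a fit whose share of all genes is not given here. Of 13 clock genes Per2 stood at 0.53 ± 0.13 without overlap and Arntl at -0.59 with overlap. The other, dimmer probe sets of Per2 gave -0.14 and 0.15.

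Neuronal genes read lower in 3D on most arrays, and their counts turned on 2D replicate 4. The lists of neuronal cytoskeleton and identity genes read neuronal RNA in a culture, and do not tell fewer neurons from less RNA per neuron. Of 24 pan-neuronal genes 23 had a negative difference, with a median of -0.37, but 0 reached either threshold. The list medians relative to the culture mean were 0.74, 0.54, 0.46 and -0.90 on the 2D arrays and 0.32, -0.37, -0.48 and -0.25 on the 3D arrays. Thus 2D replicate 4 lay below all 3D arrays, and 3D replicate 1 lay nearer to the other 2D arrays than to 3D.

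Sympathetic identity genes showed the same order of arrays. All 20 had negative differences, with a median of -0.60, 3 of them at the unadjusted threshold. Th read 11.89, 11.58, 12.44 and 9.59 in 2D and 10.63, 9.93, 9.44 and 9.89 in 3D (-1.40 ± 0.56, adjusted p = 0.394), and Gata3 8.29, 8.08, 8.25 and 6.93 in 2D and 6.56 to 7.64 in 3D (-0.99 ± 0.35). Without 2D replicate 4, 18 of the 20 sympathetic and 17 of the 24 pan-neuronal genes read lower at the unadjusted threshold, when 11.9% of all genes did. Without 3D replicate 1 the counts were 6 and 1, in a fit whose share of all genes is not given here. With both arrays left out, 17, 14 and, of 20 synaptic vesicle genes, 13 were past the adjusted threshold as lower, when 5.01% of all genes were. These 2 arrays are the ones whose neuronal markers lay farthest from their own groups, so leaving them out chooses the arrays by the genes then counted, and these counts describe the other 6 arrays and are no test of neuronal genes between the cultures. Genes of cholesterol synthesis depended on the same arrays, with 0 of 20 at either threshold when all arrays were used. Without 2D replicate 4, 17 read lower at the unadjusted threshold, and without both arrays 14 did at the adjusted threshold. The same limit holds for these counts, and a link between cholesterol and neuronal genes was not tested. Tubb3, neuronal tubulin, had an interval from -0.97 to 0.43 over all 8 arrays.

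Macrophage markers spread widely over the 2D arrays. Their list median stood at 0.16, -0.53, -1.39 and 1.45 relative to the culture mean in 2D and at -0.04 to 0.24 in 3D, and 0 of 18 reached either threshold. Csf1r, the receptor that defines the lineage, read 9.27, 8.4, 9.15 and 10.83 in 2D and 8.84 to 9.48 in 3D. Adgre1 read 8.43, 7.89, 6.58 and 9.44 in 2D and 9.03 to 9.28 in 3D. By the list median 2D replicate 3 was the lowest and 2D replicate 4 the highest, and without the latter 7 of 18 read higher in 3D at the unadjusted threshold, when 11.1% of all genes did. The smooth muscle markers were also highest in 2D replicate 4, at a list median of 1.01. The part of these differences in cell types in the gene comparisons above was not tested.

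Interferon-stimulated genes, the antiviral programme, had a median of -0.85, and all 20 had a negative difference. Of these, 10 reached the unadjusted threshold and only Ifi35 (11.46 to 12.33 in 2D, 10.62 to 11.36 in 3D) had arrays that did not overlap. Rsad2 read 9.0, 11.27, 10.77 and 7.63 in 2D and 7.31 to 8.29 in 3D (-1.96 ± 0.72, adjusted p = 0.361). The list medians of 0.46, 0.85, 0.68 and -0.36 in 2D and -1.08, 0.24, -0.50 and -0.20 in 3D overlapped. The count of 10 ranged from 2 without 2D replicate 2 to 17 without 2D replicate 4; it was 3 without 2D replicate 3, 3D replicate 1 or 3D replicate 3 and 5 without 2D replicate 1. Immunoproteasome and peptide loading genes Psmb8 (-1.09), Psmb9 (-1.12) and Tap1 (-0.80) were among 4 of 13 antigen presentation genes that read lower. The cytokine Il6 read 11.24 to 12.02 in 2D, 9.20, 9.72 and 9.46 in 3 of the 3D arrays and 11.39 in 3D replicate 2 (-1.54 ± 0.44, adjusted p = 0.265).

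**Figure D5:**
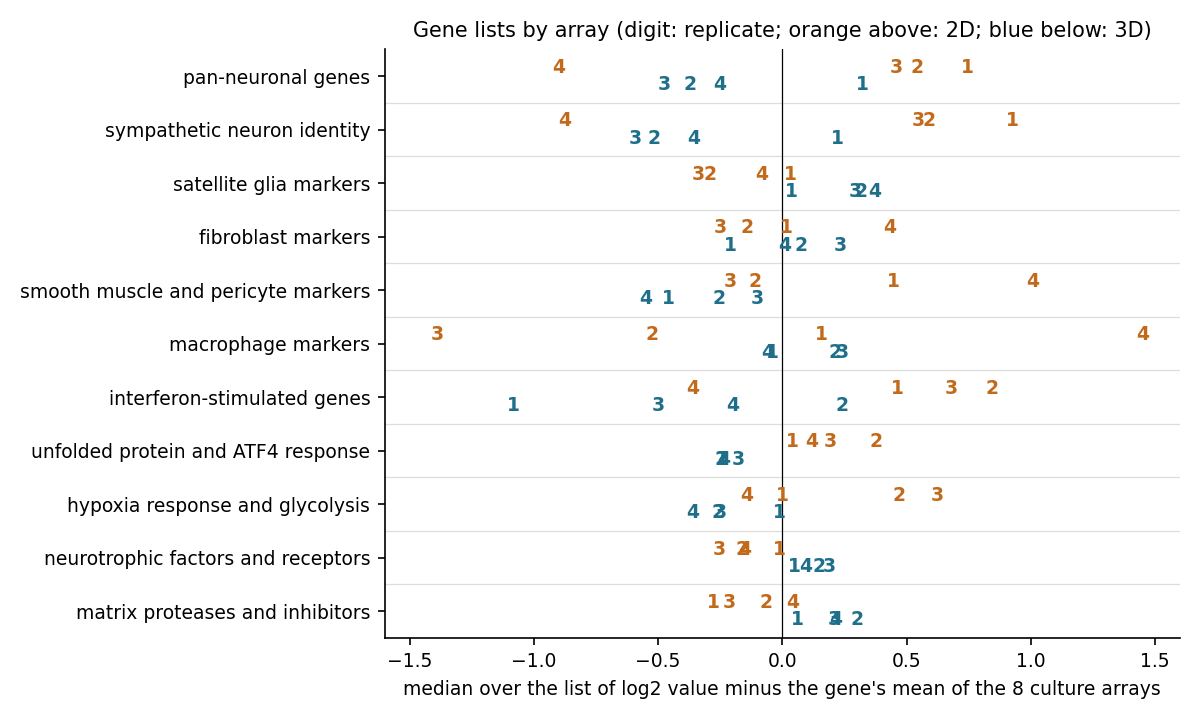
Median over each gene list of the log2 value minus the gene's mean over the 8 culture arrays; each digit is the replicate number of a 2D (orange, upper) or 3D (blue, lower) array. For the ATF4 list all 3D arrays lie left of all 2D arrays, whereas 2D replicate 4 lies at -0.90 for pan-neuronal genes and at 1.45 for macrophage markers, away from the other 2D arrays.

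The counts of the remaining lists stand against background shares of 7.57% higher and 5.5% lower. Of 32 cell division genes 2 read higher and 0 lower, with a median of 0.00, and Mki67 had an interval from -0.04 to 0.50. Of 9 genes of caveolae and flotillin rafts only Cavin1 (0.38) reached the unadjusted threshold, and its other, dimmer probe sets gave 0.04 and -0.08. Cav1 had an interval from -0.93 to 0.49, with 2D replicate 4 at 11.35 and the other 2D arrays at 9.97 to 10.05. Integrin and focal adhesion genes gave 2 higher and 3 lower of 25. At the unadjusted threshold the Wnt list gave 4 higher and 2 lower of 19, the Notch list 1 and 3 of 10, cell junctions 5 and 0 of 17, cytokines and chemokines 3 and 1 of 27, matrix glycoproteins 4 and 2 of 21, clock genes 3 and 1 of 13, and heat shock chaperones 2 and 2 of 13. None read higher and few lower among endothelial (2 of 14) and adipocyte markers (2 of 9), NRF2 targets (1 of 15) and p53 targets (1 of 9), and the fatty acid (14) and skeletal muscle (10) lists had 0 in either direction. Over all 697 listed genes 1 (Nr4a2) passed the adjusted threshold and 172 (24.7%) reached the unadjusted one, against 13.1% of all genes. The lists were drawn up with earlier results of these data known, so this share does not stand as independent support.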

How the data were processed

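RNA of cultured SCG cells and of SCG tissue was hybridised to 12 single-colour Affymetrix arrays. The deposited values are log2 intensities that the authors made with RMA (background correction, quantile normalization and summary by probe set) in Expression Console (version: not given in the sources used here). Quantile normalization hides a shift shared by all genes. Neither raw scans nor their dates entered the analysis, and 0 columns belonged to other samples. Controls were left out (64 of 45101 probe sets). Groups came from the sample labels, and titles call the arrays biological replicates.

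The 8 culture arrays were fitted with limma 3.58.1 (R 4.3.3, statmod 1.5.0; lmFit and eBayes), with no covariate, and p-values were adjusted by the Benjamini-Hochberg method over 45037 probe sets. The platform annotation gave 1 symbol to 34945, several to 932 and none to 9160, and 34741 of the symbols matched RefSeq. Each gene was represented by its probe set of highest mean over the 12 arrays, and 9010 genes had more than 1. The script was tested on simulated data. No array pair held identical values.

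The members and the 40 lists were chosen with earlier results of these data known. The rule named the 15 highest and 15 lowest genes past the threshold without overlap, the 10 of smallest adjusted p with ties (1 of which is not reported here), leading members of each list and cell type markers. Since 3 genes passed, the first part was widened after the values were seen to all genes without overlap. Other genes, among them Pck2, Cth, Aldh18a1, Mmp3 and Il6, were also chosen after their values were seen. Alternatives were cyclic loess, centring, all 12 arrays in 1 fit, array quality weights, another variance prior, a filter on dim probe sets, a replicate block, the methods' t-test, other choices of probe set, a minimum change and leaving out arrays.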

Additional observations from a re-analysis of the deposited data

Results flagged for a closer look

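In 22 of 292 groups of 4 arrays tested over the named genes, 1 array lay far from the other 3 of its group, by the gap to its nearest neighbour over the range (Dixon's 95% limit), where chance gives about 1 in 20. Of these, 8 were 3D replicate 1, 6 were 2D replicate 4, and none was 2D replicate 2 or 3D replicate 4. In 3D replicate 1 the distant log2 values were 12.69 for Pmp22, 10.5 for Cav2, 9.27 for Sema3e, 11.91 for Bnip3, 9.81 for Epha5, 10.69 for Stx1a, 12.76 for Atf3 and 12.8 for Dbh. In 2D replicate 4 they were 9.14 for Ankrd1, 8.4 for Acss2, 11.82 for Nefm, 9.3 for Oas1a, 6.93 for Gata3 and 10.19 for Rgs8. In 3D replicate 3 they were 9.22 for Bambi, 11.2 for Aldh18a1 and 8.51 for Krtap4-16, and in 3D replicate 2 they were 10.57 for Ndufb8, 8.64 for Trib3 and 6.82 for Esam. Gadd45a was distant in 2D replicate 1 at 10.94, and Timp2 in 2D replicate 3 at 12.29. In Bambi the other 3 arrays read the same value, so that any gap passes.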

How the results depend on the processing

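The counts of genes higher in 3D than in 2D (3) and of genes lower in 3D than in 2D (0) depended on the arrays and on the test. Leaving out 1 array at a time gave 0 to 62 genes higher and 0 to 61 lower (limma adjusted p), with 62 and 61 without 2D replicate 4 and 12 and 3 without 3D replicate 1. Without 2D replicate 4 and 3D replicate 1 together the counts were 446 and 911. Both arrays stood apart from their own groups by neuronal markers in these same data. The counts without them therefore describe the remaining arrays and are no test of the cultures. With array quality weights the counts were 196 and 116. The fit of all 12 arrays gave 3 higher and 1 lower. The methods' t-test gave 1316 higher and 802 lower without adjustment, and 0 higher and 0 lower after the Benjamini-Hochberg adjustment. With the replicate number as a block 0 genes were higher and 0 lower. The arrays of 1 number shared little: the correlation of their deviations was 0.41, 0.03, 0.15 and 0.15, and 4 of 8 arrays correlated best with their own number. The numbers were therefore not taken as pairs. Cyclic loess, centring, the trended prior, the filter on dim probe sets, the minimum change and other choices of probe set gave 2 to 4 higher and 0 lower. Among 146 named genes 4 of 2915 alternative values had another sign, in Wwtr1, Nr4a3 and Ndufb8, all with other probe sets. The cause was not tested. Dim genes such as Asgr1 have no detection call to set them against.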
